A study of Mus musculus with 3 samples.

Results

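The Rab genes described here encode the largest family of small GTPases that direct membrane traffic. They were taken from the raw count table as the protein-coding genes whose GENCODE M21 symbol is Rab followed by a digit and then only digits or letters, without the interacting, effector and GTPase-activating proteins named after a Rab. The rule took 54 of 19723 genes, and 44 of the 54 reached 1 CPM (counts brought to a common library size) in at least 1 library, as did 13019 genes in all. A gene that passed this filter through 1 library alone had to differ from the others. Of the 54, Rab3il1 (an exchange factor that loads Rab proteins with GTP) and Rab5if (a protein that interacts with Rab5) meet the symbol rule but are not themselves Rab GTPases, and they were kept apart from the role groups.

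The study compared 3 pooled cell sorts from female BALB/c mice aged 6 to 8 weeks, with 1 library each. The first was of MDSCs, the immature myeloid suppressor cells that hold T cells in check, sorted from 20 tumours of alisertib-treated mice; alisertib inhibits the kinase Aurora A. The second was of MDSCs from 20 tumours of control mice. The last was of bone marrow neutrophils pooled over 5 animals of wild type. Sort markers, the tumour line and the dose are not given in the labels. The control mice are named both as control treated and as untreated, with no mention of a vehicle. Pooling and single libraries leave no replicates, so no p-value was computed, and a difference stands for these libraries alone.

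Rab proteins switch between a GDP-bound form held in the cytosol by a GDP dissociation inhibitor and a GTP-bound form anchored in a membrane by a lipid tail. Exchange factors switch them on, GTPase-activating proteins switch them off, and effectors bound to the active form tether, move or fuse the vesicle. Each Rab marks its own compartments. In neutrophils the family is best known for the docking and release of preformed granules and for the maturation of phagosomes.

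Sequences near the transcription start are shown for the 2 Rab genes that were lowest and 1 abundant Rab gene that was much higher in control MDSCs than in bone marrow neutrophils, as a reference for the values that follow. They come from RefSeq on GRCm38.p6, which held a promoter for 45 of the 54 genes, and run 5′ to 3′ from 250 bases before the start to 50 bases after it. Those of Rab27a (chr9:73044560-73044859, plus strand), Rab3d (chr9:21918134-21918433, minus strand) and Rab20 (chr8:11478591-11478890, minus strand) read as follows, with matches to the searched motifs in capitals.
Rab27a: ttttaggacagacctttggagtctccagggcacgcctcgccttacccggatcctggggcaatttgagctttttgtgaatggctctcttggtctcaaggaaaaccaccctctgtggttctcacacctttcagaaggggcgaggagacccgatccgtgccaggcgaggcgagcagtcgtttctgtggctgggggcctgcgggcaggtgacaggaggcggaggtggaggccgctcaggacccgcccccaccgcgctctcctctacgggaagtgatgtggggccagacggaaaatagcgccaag
Rab3d: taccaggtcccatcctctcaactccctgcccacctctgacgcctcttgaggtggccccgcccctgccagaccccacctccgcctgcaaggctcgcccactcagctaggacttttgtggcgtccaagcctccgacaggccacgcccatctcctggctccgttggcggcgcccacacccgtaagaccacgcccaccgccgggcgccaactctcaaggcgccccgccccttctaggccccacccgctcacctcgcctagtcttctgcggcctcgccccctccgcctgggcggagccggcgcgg
Rab20: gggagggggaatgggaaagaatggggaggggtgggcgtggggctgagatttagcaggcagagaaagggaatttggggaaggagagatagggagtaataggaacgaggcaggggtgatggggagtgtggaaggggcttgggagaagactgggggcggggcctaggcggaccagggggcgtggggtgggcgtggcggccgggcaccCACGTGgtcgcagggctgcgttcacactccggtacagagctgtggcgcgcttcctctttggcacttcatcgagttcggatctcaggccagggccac
The motifs searched on both strands were ACGTG (the core of hypoxia response elements), CACGTG (an E-box, which contains ACGTG on either strand), TTGCNNAA (a C/EBP site) and AGGAAGT (a PU.1 core). They occurred in 19.6%, 7.24%, 10.7% and 9.52% of 27025 promoters. Neither the Rab27a nor the Rab3d window held a match, and the Rab20 window held 1 E-box beginning at base 205. Among the 45 Rab promoters, 12 held ACGTG, 5 the E-box, 3 the C/EBP site and 5 the PU.1 core. ACGTG lay in 3 of the 7 promoters of genes called higher in control MDSCs than in marrow and in 3 of the 8 of genes called lower. A match is only a stretch of letters and says nothing of binding.

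The libraries held 19373087 counts with alisertib, 21959748 in control and 21987097 in bone marrow. The Rab genes took 0.605% of the alisertib library (exact Clopper-Pearson 95% interval 0.602 to 0.609), 0.611% of the control library (0.608 to 0.614) and 0.552% of the bone marrow library (0.549 to 0.555). All 54 were detected with alisertib, 50 in control and 53 in bone marrow. Ratios below are of TMM-scaled counts with an exact 95% interval in parentheses, which covers counting error only. The call rule asked that the interval's near bound lie 2-fold or more from equality. In bulk RNA, fewer cells of a type and less RNA per cell cannot be told apart. All 8 neutrophil markers, among them Ly6g, Itgam and Csf3r, were detected in each library, with a summed level of 13456 CPM with alisertib, 31475 CPM in control and 59247 CPM in bone marrow. S100a9 alone gave 7363, 17726 and 30389 CPM of these sums.

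Rab genes took a similar share of the counts in each library, a little lower in bone marrow, but the make-up of their transcripts differed. The deposited FPKM scale allows levels of genes of different length to be compared. On it the Rab genes summed to 1909 with alisertib, 2291 in control and 1656 in bone marrow. Rab7, the Rab of late endosomes and lysosomes, was the most abundant member in every library. Its 632 FPKM with alisertib and 738 FPKM in control made up 33.1% and 32.2% of the summed Rab FPKM, and its 197 FPKM in bone marrow made up 11.9%. Next in both tumour libraries came Rab8b (199 FPKM with alisertib and 255 in control) and Rab20 (187 and 195). In bone marrow the places after Rab7 went to Rab5c (112 FPKM), Rab27a (101), Rab3d (99.9) and Rab1b (98.7), 4 genes that lay close together.

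By role, the Rabs of late endosomes, lysosomes and lysosome-related organelles held 42.8% of Rab FPKM with alisertib and 42.4% in control, against 21.6% in bone marrow. Granule Rabs held 2.35% with alisertib and 3.65% in control, against 17.5% in bone marrow. Those of the ER and Golgi stood at 11.7% and 11.2% in the tumour libraries and 18.3% in bone marrow. Shares of early endosome Rabs (24.2%, 23.2% and 24.2%) and of recycling Rabs (17.8%, 18.1% and 14.6%) were closer, listed for alisertib, control and marrow. These shares sum to 100 within a library, so a larger share of 1 gene leaves less for the others.

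**Figure D1:**
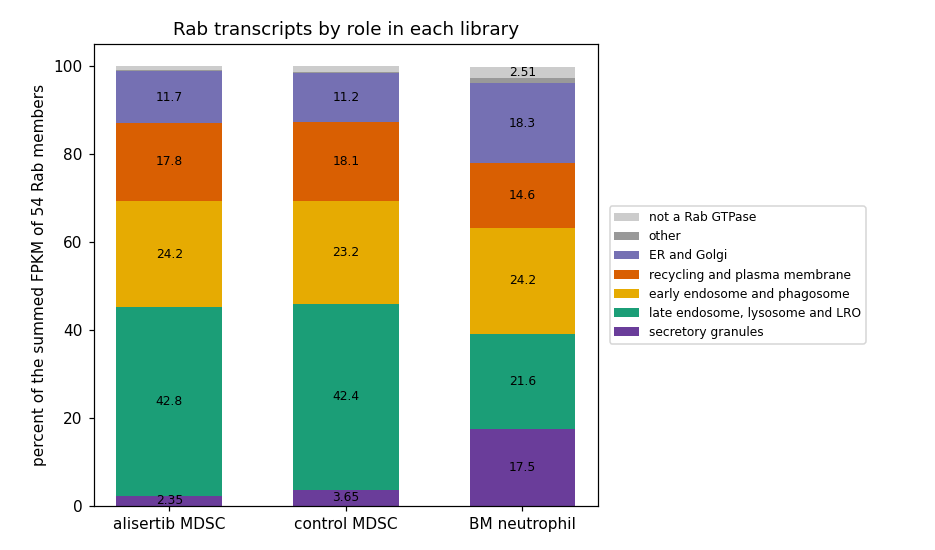
Percent of the summed deposited FPKM of the 54 Rab genes held by each role group (stacked colours), for the alisertib MDSC, control MDSC and bone marrow (BM) neutrophil libraries; LRO, lysosome-related organelles. Granule Rabs hold 2.35%, 3.65% and 17.5% of the column from left to right, and late endosome and lysosome Rabs 42.8%, 42.4% and 21.6%.

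**Figure D2:**
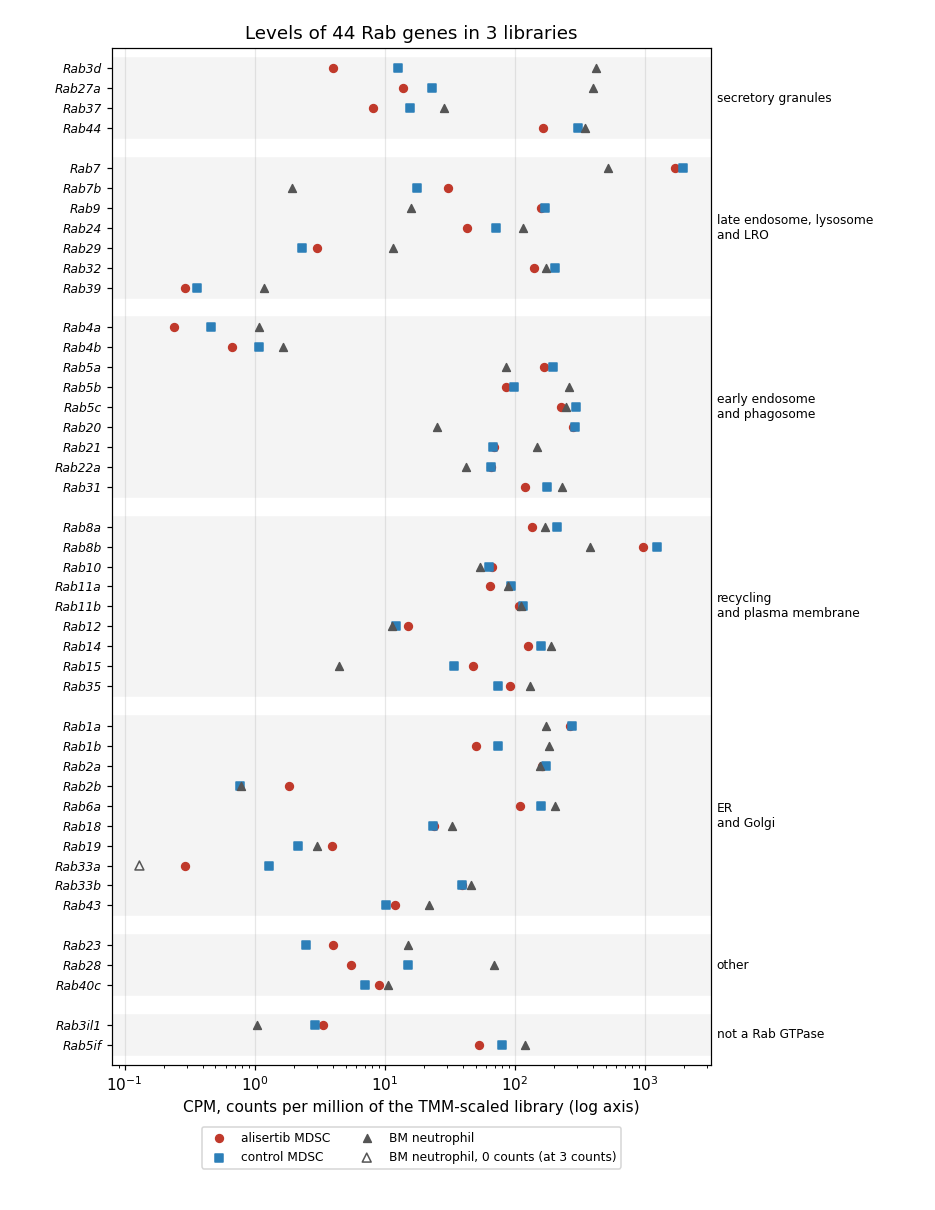
Level of each of the 44 Rab genes past the filter (rows, grouped by role) in CPM on a log axis, with 1 point per library. The open triangle marks Rab33a, with 0 counts in bone marrow, drawn at the level of 3 counts. For Rab3d and Rab27a the marrow point lies far right of both tumour points, and for Rab20, Rab9, Rab15 and Rab7b far left of them.

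The comparison of control tumour MDSCs with bone marrow neutrophils asked how myeloid cells of the tumour differ from neutrophils of healthy mice. Of the 44 Rab genes, 8 were called higher in control MDSCs (18.2%, against 18.3% of all 13019 genes) and 8 lower (18.2%, against 22.9%). These shares lie near those of all genes, and the family's median log2 ratio of -0.24 lay near the -0.14 of all genes. Single members had large ratios in both directions. The 8 higher genes were Rab20, Rab9, Rab7b, Rab15, Rab7, Rab8b, Rab5a and Rab33a, and the 8 lower ones Rab3d, Rab27a, Rab23, Rab29, Rab28, Rab5b, Rab1b and Rab21. Rab33a passed the filter only through control, the library where it was high, so its place among the 8 follows in part from the filter. With upper-quartile scaling the family median was 0.08 and that of all genes 0.17.

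Alisertib MDSCs were set against the same bone marrow library, so their ratios share its counts with those of control MDSCs. Here 7 Rab genes were called higher (15.9%, against 18.7% of all genes) and 12 lower (27.3%, against 22.3%), with a median log2 ratio of -0.39, against -0.09 for all genes. With upper-quartile factors the family median was -0.04 and that of all genes 0.21. The lower ones included Rab37, Rab44 and Rab24, which were not called in control MDSCs. That these 3 were called with alisertib alone does not by itself show a difference from control, and their direct ratios are given below.

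The direct comparison of alisertib with control MDSCs asked what the drug changed in tumour MDSCs. No Rab gene was called higher (1.80% of all genes were) and 2 of 44 were called lower (4.55%, against 1.18%), namely Rab3d and Rab28. Most differences were small: 29 of the 44 lay within 1.5-fold, against 69.8% of all genes. The median log2 ratio was -0.20, with 28 members below 0 and 16 above, against 0.00 for all genes. With total counts in place of TMM scaling, which moved the median of all genes to 0.27, that of the Rab genes was 0.11.

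**Figure D3:**
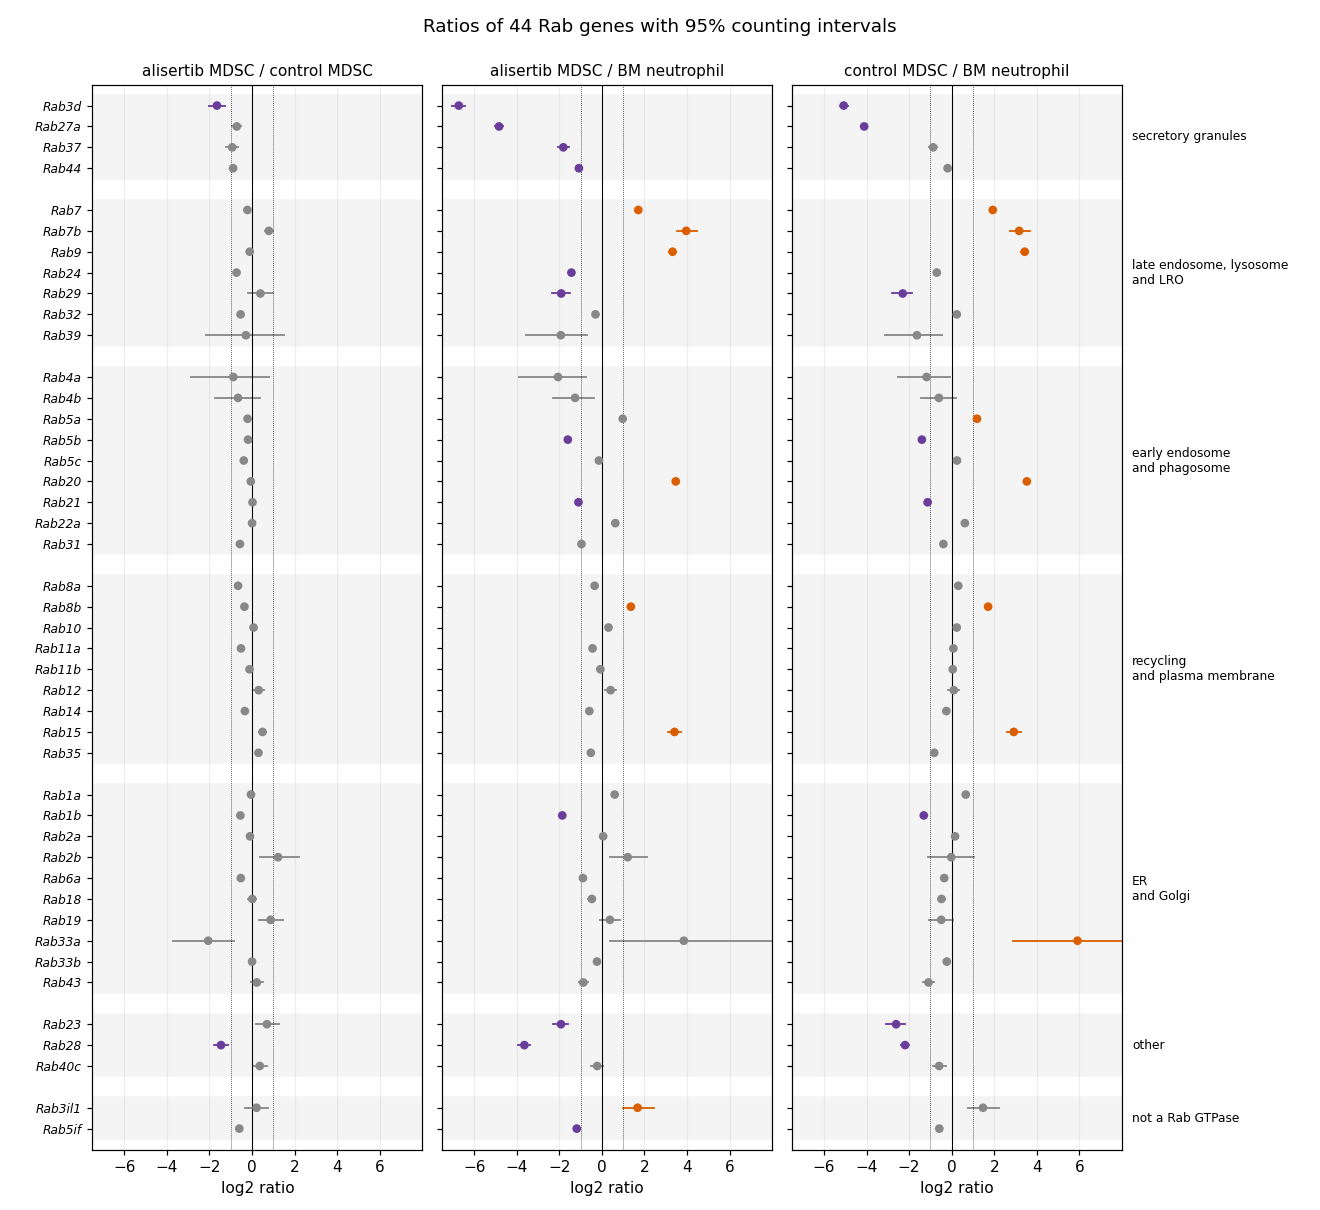
Log2 ratio of each of the 44 Rab genes (rows, grouped by role) with its 95% counting interval, for alisertib over control MDSCs (left), alisertib MDSCs over BM neutrophils (middle) and control MDSCs over BM neutrophils (right). Orange marks genes called higher and purple genes called lower, dotted lines mark 2-fold, and a bar that runs to the right edge has no upper bound because bone marrow held 0 counts of Rab33a. Rab3d and Rab28 are the only purple points on the left, and Rab3d lies lowest in the middle and right panels.

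Of the 4 secretory granule Rabs past the filter, 2 were called lower in control MDSCs than in bone marrow and 0 higher (22.9% and 18.3% of all genes were), and 4 lower and 0 higher with alisertib (22.3% and 18.7% of all genes). Rab3d and Rab27a had the lowest ratios of all Rab genes in both comparisons. Rab3d, which sits on the granules of exocrine and mast cells (ENSMUSG00000019066, GRCm38 chromosome 9, 21907491 to 21918192, minus strand), had 83 counts with alisertib, 246 in control (12.6 CPM) and 9772 in bone marrow (424 CPM), so bone marrow neutrophils stood far above both tumour libraries, and the alisertib library was the lowest. Rab3d was 33.6-fold lower in control MDSCs than in bone marrow (29.6 to 38.3) and 105-fold lower in alisertib MDSCs (85.4 to 133). It was also 3.14-fold lower with alisertib than in control (2.45 to 4.09), a call that held under each scaling.

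Rab27a docks secretory granules at the plasma membrane, and in neutrophils it is needed for the release of azurophilic granules (ENSMUSG00000032202, chromosome 9, 73044854 to 73097629 on the plus strand). It had 289 counts with alisertib (13.9 CPM), 448 in control (22.9 CPM) and 9143 in bone marrow (396 CPM). Again bone marrow was far above both tumour libraries. The gene was 17.3-fold lower in control MDSCs than in bone marrow (15.7 to 19.04) and 28.4-fold lower in alisertib MDSCs (25.3 to 32.1). Between alisertib and control MDSCs its ratio of 0.607 (0.522 to 0.705) did not reach the 2-fold bound. On the FPKM scale it fell to 3.49 with alisertib and 5.76 in control, against 101 in bone marrow, so the third most abundant Rab gene of marrow neutrophils ranked 30th and 28th in the tumour libraries.

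Rab44, an unusually large Rab that carries calcium-binding EF hands, kept a high level. It had 3403 counts with alisertib (164 CPM), 5939 in control (304 CPM) and 7984 in bone marrow (346 CPM), the alisertib library being the lowest. It was 2.11-fold lower in alisertib MDSCs than in bone marrow (2.03 to 2.20), a call that ended with total counts or DESeq2 size factors (log2 ratio -1.05 with either) and with upper-quartile factors (-0.80). In control MDSCs its ratio to bone marrow was 0.879 (0.849 to 0.909), and alisertib over control was 0.539 (0.517 to 0.563). Rab37, a Rab of mast cell granules, had 8.19 CPM with alisertib, 15.7 CPM in control and 28.7 CPM in bone marrow, and was called 3.50-fold lower in alisertib MDSCs than in bone marrow (2.96 to 4.17). In control its ratio to bone marrow was 0.546 (0.475 to 0.626). Its alisertib over control ratio was 0.524 (0.431 to 0.633).

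Between alisertib and control, the 4 granule Rabs past the filter had a median log2 ratio of -0.91, each lay below 0 under each scaling, and only Rab3d was called. The low neighbours Rab3a (8, 0 and 23 counts with alisertib, in control and in bone marrow) and Rab3b (3, 0 and 1) did not pass the filter. The summed neutrophil markers were ordered like the granule Rabs, with alisertib below control and both below bone marrow, and 4 of 8 (Mmp8, Retnlg, S100a8 and S100a9) were called lower with alisertib than in control. Ly6g had 60.0 CPM with alisertib, 82.2 CPM in control and 1099.8 CPM in bone marrow. Markers of mast cells, basophils and eosinophils, cells that also use these Rabs, summed over 6 of 6 genes to 53.3 CPM with alisertib, 37.7 CPM in control and 150.4 CPM in bone marrow. Siglecf alone gave 52.3 CPM with alisertib and 35.6 CPM in control, against 9.06 CPM in marrow. The other 5 (Cpa3, Mcpt8, Ms4a2, Epx and Prg2) were each called lower in both tumour libraries and summed to 0.963 CPM with alisertib and 2.15 CPM in control, against 141 CPM in marrow, with Ms4a2 and Epx at 0 in control. Their part in the granule Rab ratios was not tested.

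Of 7 late endosome and lysosome Rabs past the filter, 3 were called higher and 1 lower in control MDSCs than in bone marrow (18.3% and 22.9% of all genes were), with a median log2 ratio of 0.24. With alisertib 3 were called higher and 2 lower (18.7% and 22.3% of all genes), with a median of -0.30. Rab7, which drives the fusion of late endosomes, phagosomes and autophagosomes with lysosomes (ENSMUSG00000079477, chromosome 6, 87999106 to 88045270), had 35276 counts with alisertib, 38641 in control and 11998 in bone marrow. These were 1699 CPM, 1978 CPM and 520.1 CPM. It was 3.80-fold higher in control MDSCs than in bone marrow (3.73 to 3.88) and 3.27-fold higher in alisertib MDSCs (3.20 to 3.34). Alisertib and control differed little, at a ratio of 0.859 (0.847 to 0.872).

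Rab9, which returns mannose 6-phosphate receptors from late endosomes to the Golgi (ENSMUSG00000079316, chromosome X, 166457253 to 166479867), stood at 158 CPM with alisertib, 170.3 CPM in control and 15.8 CPM in bone marrow. Both tumour libraries were about level and far above marrow. Its ratio to bone marrow was 10.8 in control (9.68 to 12.1) and 10.01 with alisertib (8.995 to 11.2). Rab7b, a distant relative of Rab7 that works between late endosomes and the Golgi, had 638 counts with alisertib, 347 in control and 45 in bone marrow. It was 9.02-fold higher in control than in bone marrow (6.66 to 12.7) and 15.6-fold higher with alisertib (11.6 to 21.8), and the direct alisertib over control ratio of 1.73 (1.52 to 1.98) fell short of the bound.

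The other 4 members of this group were called lower or not called. Rab29, which recruits the kinase Lrrk2 to the Golgi and to stressed lysosomes, had 3.03 CPM with alisertib, 2.30 CPM in control and 11.5 CPM in bone marrow, and was 4.94-fold lower in control than in marrow (3.63 to 7.001) and 3.76-fold lower with alisertib (2.87 to 5.06). Rab24, linked to autophagy, was 2.70-fold lower with alisertib than in bone marrow (2.502 to 2.92) and had a control over bone marrow ratio of 0.614 (0.575 to 0.656), but 62.4% of its exon bases lie under the opposite-strand gene Prelid1. Without a stated strand setting the reads of these 2 genes cannot be told apart. Rab32, of lysosome-related organelles, was abundant and level, at 141 CPM with alisertib, 205 CPM in control and 174 CPM in bone marrow. Rab39 reached 1 CPM in bone marrow only (6, 7 and 27 counts with alisertib, in control and in marrow).

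Early endosome and phagosome Rabs split. Rab20, which takes part in phagosome maturation (ENSMUSG00000031504, chromosome 8, 11453518 to 11478710), had 5772 counts with alisertib, 5661 in control and 579 in bone marrow. In CPM these were 278, 289.8 and 25.1, so the tumour libraries were alike and marrow was low. It was 11.5-fold higher in control MDSCs than in bone marrow (10.6 to 12.6) and 11.1-fold higher with alisertib (10.2 to 12.1), and alisertib over control was 0.960 (0.925 to 0.996). Some 25.6% of its exon bases overlap the opposite-strand transcript E230013L22Rik, which had 766 counts with alisertib, 607 in control and 62 in bone marrow, far fewer than Rab20.

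The 3 isoforms of Rab5, the master regulator of early endosome fusion, differed from each other. Rab5a had 169 CPM with alisertib, 195 CPM in control and 85.8 CPM in bone marrow. It was 2.28-fold higher in control than in marrow (2.15 to 2.40), a call lost with total counts (log2 ratio 0.95), and its alisertib over bone marrow ratio was 1.97 (1.86 to 2.08). Rab5b went the opposite way, at 85.8 CPM with alisertib, 98.2 CPM in control and 259.8 CPM in bone marrow. It was 2.65-fold lower in control (2.51 to 2.79) and 3.03-fold lower with alisertib (2.87 to 3.19) than in marrow. Rab5c, the most abundant isoform on the FPKM scale, was near level, with 225 CPM under alisertib, 295 CPM in control and 248 CPM in marrow.

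Rab21, which carries integrins inward, had 69.4 CPM with alisertib, 68.2 CPM in control and 149 CPM in bone marrow. Its 2.18-fold lower level in control MDSCs than in marrow (2.05 to 2.33) was not called with DESeq2 size factors (log2 ratio -1.05) or upper-quartile factors (-0.84), and its 2.15-fold lower level with alisertib (2.02 to 2.28) was not called with DESeq2 size factors (-1.07), total counts (-1.07) or upper-quartile factors (-0.82). The related endosomal Rabs Rab22a and Rab31 were not called. Rab22a had 65.3 CPM with alisertib, 65.2 CPM in control and 42.3 CPM in bone marrow, and Rab31 had 119, 176 and 232 CPM. Rab4a and Rab4b, of fast recycling from early endosomes, were scarce at 0.241 to 1.65 CPM across the libraries, and 65.0% of the exon bases of Rab4b overlap Gm21983.

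Of the recycling and plasma membrane Rabs, 2 of 9 past the filter were called higher in control MDSCs than in bone marrow (22.2%, against 18.3% of all genes). None was called lower (22.9% of all genes were). The counts were the same with alisertib (18.7% and 22.3% of all genes). Rab8b, which delivers vesicles to the plasma membrane, had 20180 counts with alisertib, 24293 in control and 8759 in bone marrow. It was 3.28-fold higher in control (3.20 to 3.36) and 2.56-fold higher with alisertib (2.497 to 2.63) than in marrow, and alisertib over control was 0.782 (0.767 to 0.797). Rab15, of sorting and recycling endosomes, had 987 counts with alisertib, 661 in control and 103 in bone marrow. It was 7.55-fold higher in control (6.15 to 9.42) and 10.6-fold higher with alisertib (8.69 to 13.2), with a direct alisertib over control ratio of 1.41 (1.27 to 1.55).

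For each of the other 7 genes of this group, the levels in the 3 libraries lay within 2-fold. Rab11a and Rab11b, the Rabs of the recycling endosome, lay at 64.7 and 107 CPM with alisertib, at 93.1 and 116 CPM in control and at 88.1 and 112 CPM in bone marrow. Rab8a, the close relative of Rab8b, had 135 CPM with alisertib, 212 CPM in control and 171 CPM in bone marrow. Rab10, which moves glucose transporters in fat cells, had 66.7, 63.6 and 53.9 CPM in the same order of libraries, Rab14 127, 160.3 and 191 CPM, Rab35 91.3, 74.0 and 131 CPM, and Rab12 15.1, 12.2 and 11.4 CPM. The neighbouring gene Rab10os lies opposite Rab10 and shares 143 exon bases with it. Below the filter, Rab13 had 18, 17 and 4 counts, and the epithelial Rab25 had 11 counts with alisertib, 1 in control and 2 in bone marrow.

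Of the 10 ER and Golgi Rabs past the filter, 1 was called higher and 1 lower in control MDSCs than in marrow. Of all genes, 18.3% were called higher and 22.9% lower there. With alisertib 0 were called higher and 1 lower than in marrow, against 18.7% and 22.3% of all genes. Between alisertib and control none of 10 was called, with a median log2 ratio of -0.03. Only 1.80% of all genes were called higher and 1.18% lower there, so 0 of 10 does not set the group apart. Rab1b, which with Rab1a carries cargo from the ER to the Golgi, had 1046 counts with alisertib, 1445 in control and 4226 in bone marrow. It was 2.48-fold lower in control than in marrow (2.33 to 2.63), a call that ended with upper-quartile factors (log2 ratio -1.02), and 3.63-fold lower with alisertib (3.40 to 3.89). Rab1a had 266 CPM with alisertib, 276 CPM in control and 175 CPM in bone marrow, a control over marrow ratio of 1.58 (1.51 to 1.64).

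Rab33a, a Golgi Rab known from brain and lymphoid cells, had 6 counts with alisertib, 25 in control and 0 in bone marrow. It reached 1 CPM in control only (1.28 CPM). Against the level of 3 counts in the marrow library it was at least 9.84-fold higher in control and at least 2.22-fold higher with alisertib, where it was not called. These folds leave out the counting error of the tumour libraries, with which the exact intervals began at 7.43 in control and 1.31 with alisertib. Alisertib over control was 0.240 (0.0758 to 0.564), not called. Rab33b, which binds the autophagy protein Atg16l1, was level at 39.5 CPM with alisertib, 39.4 CPM in control and 46.2 CPM in marrow. Rab2a, of ER to Golgi traffic, was level too, at 161, 173 and 155 CPM, whereas the scarce Rab2b had 38, 15 and 18 counts. Rab6a, of retrograde Golgi traffic, had 109, 158 and 202 CPM, Rab18, of lipid droplets and the ER, 23.8, 23.7 and 33.0 CPM, Rab43 11.9, 10.2 and 21.8 CPM, and Rab19 3.95, 2.15 and 3.03 CPM. None of these was called in any comparison, and the value of Rab43 is uncertain because 75.4% of its exon bases overlap Gm45140. The scarce Rab30, Rab34, Rab36 and Rab6b stayed below the filter, at 20 counts or fewer.

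Among members outside these groups, 2 with roles in cilia were low in tumour MDSCs. Rab28 (ENSMUSG00000029128, chromosome 5, 41624976 to 41708157), known from photoreceptor cilia, had 114 counts with alisertib, 295 in control and 1588 in bone marrow. The 3 libraries were well apart, alisertib lowest. It was 4.55-fold lower in control than in marrow (4.02 to 5.18), 12.5-fold lower with alisertib (10.4 to 15.3) and 2.74-fold lower with alisertib than in control (2.21 to 3.44). The last call ended with total counts (log2 ratio -1.19) and with FPKM plus 1 (-0.96). Rab23, a negative regulator of hedgehog signalling, had 83 counts with alisertib, 48 in control and 350 in bone marrow, 6.12-fold lower in control than in marrow (4.56 to 8.53) and 3.78-fold lower with alisertib (2.98 to 4.88), where it was not called with FPKM plus 1 (log2 ratio -0.94).

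Rab40c, which joins a Rab domain to a SOCS box, was level at 9.10 CPM with alisertib, 7.06 CPM in control and 10.6 CPM in bone marrow. Rab40b and Rab38, below the filter, had 2 and 6 counts with alisertib, 0 and 0 in control and 2 and 6 in marrow. Of the 2 genes that are no Rab GTPases, Rab5if had 52.9 CPM with alisertib, 80.0 CPM in control and 119.8 CPM in bone marrow and was called 2.26-fold lower with alisertib than in marrow (2.11 to 2.43), but not with upper-quartile factors (log2 ratio -0.90). Rab3il1 had 70, 57 and 24 counts and was called 3.20-fold higher with alisertib than in marrow (2.01 to 5.39), but not with FPKM plus 1 (0.49).

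The ratio of the counts of 2 related Rabs within a library does not depend on scaling between libraries. Of 10 pairs with both members past the filter, 0 shifted their ratio by a bound of at least 2-fold with alisertib against control. In alisertib MDSCs against bone marrow 6 did, and in control MDSCs against bone marrow 4. Without the distant pair of Rab7 and Rab7b, an alternative chosen after seeing the data, 5 and 4 of 9 did. Rab1a took the larger part of its pair's transcripts in both tumour libraries but not in marrow. Rab8b took the larger part of its pair in every library. Rab1b, Rab5b and Rab8a took a larger part of their pairs in marrow than in either tumour library. Rab1a made up 71.8% of the FPKM of the Rab1a and Rab1b pair with alisertib and 64.3% in control, against 31.6% in bone marrow. The count ratio of Rab1a over Rab1b was 3.91-fold higher in control than in marrow (conditional exact interval 3.63 to 4.202) and 5.52-fold higher with alisertib (5.10 to 5.98).

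Rab5b made up 20.9% of the Rab5b and Rab5c pair with alisertib and 18.7% in control, against 42.0% in bone marrow, and the count ratio in control was 0.318 of that in marrow (0.299 to 0.339). For Rab8a over Rab8b the count ratio in control was 0.380 of that in marrow (0.361 to 0.399) and with alisertib 0.308 (0.292 to 0.325). The Rab22a over Rab31 ratio was 3.01-fold higher with alisertib than in marrow (2.74 to 3.32), and in control 2.03-fold higher with a lower bound of 1.84. The Rab11a over Rab11b ratio was 1.024-fold of marrow in control (0.940 to 1.12), and with alisertib 0.772 of marrow (0.706 to 0.845) and 0.754 of control (0.688 to 0.828). The processed pseudogene Rab11b-ps2, with 22 counts under alisertib, 28 in control and 42 in marrow, can share reads with Rab11b.

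**Figure D4:**
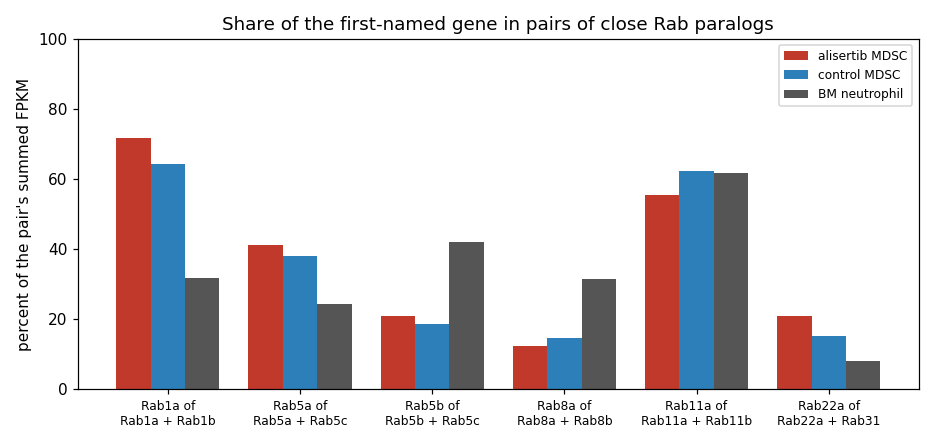
Percent of the summed FPKM of a pair of related Rabs held by the first-named gene, in alisertib MDSCs, control MDSCs and BM neutrophils (bars, 1 library each, no error). The Rab1a bars stand at 71.8%, 64.3% and 31.6%, those of Rab8a at 12.3%, 14.7% and 31.3%, and those of Rab11a at 55.4%, 62.2% and 61.6%.

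The genes that load, switch and read the Rabs were taken as 5 lists. None of the lists had more than 1 gene called between alisertib and control, where 1.80% of all genes were called higher and 1.18% lower. Against bone marrow many were called in both directions over the 5 lists together. The same held for all genes, of which 18.3% were called higher and 22.9% lower in control MDSCs. Of 32 exchange factor genes, 4 were called higher and 11 lower in control MDSCs than in marrow (12.5% and 34.4%, against 18.3% and 22.9% of all genes), with a median log2 ratio of -0.67. With alisertib 4 and 13 were (12.5% and 40.6%, against 18.7% and 22.3%), with a median of -0.81. Rabgef1, which activates Rab5 (832 CPM with alisertib, 923 CPM in control, 81.9 CPM in marrow), was 11.3-fold higher in control (10.7 to 11.8). Sbf2, whose fly relative activates Rab21, was 7.78-fold higher (5.94 to 10.5). Rin2, another Rab5 exchange factor, was 21.5-fold lower (18.0 to 25.9), Dennd2a 60.3-fold lower (29.7 to 179) at 6 against 462 counts, and Dennd2d 9.32-fold lower (8.11 to 10.8). Dennd5b was the 1 exchange factor called between alisertib and control, 6.42-fold higher with alisertib (2.73 to 22.7) at 37 against 5 counts.

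GTPase-activating protein genes had 8 called higher and 8 lower of 29 in control against marrow (27.6% each, against 18.3% and 22.9% of all genes), with a median log2 ratio of -0.60. With alisertib 8 and 9 were (27.6% and 31.0%, against 18.7% and 22.3%), with a median of -0.35. Tbc1d9 was the most raised, at 218 CPM with alisertib, 142 CPM in control and 1.65 CPM in marrow, 85.2-fold higher in control (62.7 to 122). Tbc1d10a, which inactivates Rab27a, was 7.38-fold higher in control than in marrow (6.52 to 8.40). Its relative Tbc1d10b, named after its values were seen, was 2.51-fold lower (2.385 to 2.64), at 100.2 CPM against 252 CPM. The Rab7 regulators Tbc1d2 and Tbc1d15 were 5.51-fold (5.23 to 5.80) and 3.34-fold higher (3.21 to 3.48). Other Rab7 regulators, also named after their values were seen, were not higher. Mon1a, of the exchange factor list, was 8.29-fold lower (5.92 to 12.25) at 35 against 347 counts. Tbc1d5 was not called, at a ratio of 0.661 (0.576 to 0.756). Tbc1d10c, best known as a calcineurin inhibitor of lymphocytes, had 81 counts with alisertib, 240 in control and 5005 in marrow. It was 17.6-fold lower in control than in marrow (15.5 to 20.2) and the 1 gene of this list called between alisertib and control, 3.14-fold lower (2.44 to 4.10). Tbc1d25 was 10.2-fold lower in control than in marrow (7.46 to 14.5).

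Of 31 effector genes, 5 were called higher and 9 lower in control than in marrow (16.1% and 29.0%, against 18.3% and 22.9% of all genes), with a median log2 ratio of -0.04. With alisertib 6 and 7 were (19.4% and 22.6%, against 18.7% and 22.3%), with a median of -0.05. The early endosome tether Eea1, which Rab5 recruits, had 388 CPM with alisertib, 469 CPM in control and 38.1 CPM in marrow, 12.3-fold higher in control (11.5 to 13.2). Plekhm2, which links lysosomes to kinesin, was 14.1-fold higher (13.1 to 15.2). Effectors of Rab27a differed among themselves. Sytl1, which brings Rab27a granules to the membrane, was 15.1-fold lower in control than in marrow (12.3 to 18.9) and 27.3-fold lower with alisertib (21.04 to 36.7). Unc13d, the priming factor Munc13-4, singled out here after its values were seen, was 7.97-fold lower in control (7.35 to 8.67) and 11.4-fold lower with alisertib (10.4 to 12.5). Sytl3, of the same family as Sytl1 and also named after its values were seen, was not called, with a ratio to marrow of 1.72 in control (1.197 to 2.51) and 0.963 with alisertib (0.631 to 1.46). Lrrk2, the kinase that phosphorylates Rab8 and Rab10, had 33.8 CPM with alisertib, 63.5 CPM in control and 698 CPM in marrow, 10.99-fold lower in control (10.4 to 11.7).

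The last of these lists held SNAREs and other genes of granule fusion. Of 16 genes, 6 were called higher and 0 lower in control than in marrow (37.5% and 0%, against 18.3% and 22.9% of all genes), with a median log2 ratio of 0.48, against -0.14 for all genes. With alisertib 4 were higher and 1 lower (18.7% and 22.3% of all genes were), with a median of 0.34, against -0.09. The SNARE genes Stx6 and Snap23 were 5.86-fold (5.33 to 6.45) and 3.55-fold higher in control (3.44 to 3.67), and Napa, which disassembles used SNARE complexes, 4.84-fold higher (4.64 to 5.05). Stxbp2, the Munc18-2 partner of granule SNAREs, had 112 CPM with alisertib, 201 CPM in control and 403 CPM in marrow and was called 3.58-fold lower with alisertib than in marrow (3.42 to 3.75), with a control over marrow ratio of 0.5003 (0.482 to 0.519). Between alisertib and control 13 of 16 lay below 0, with a median of -0.41 and none called. Of all genes, 1.80% were called higher and 1.18% lower there.

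Of the 8 genes for GDP dissociation, escort and prenylation, 0 were called higher and 1 lower in control than in marrow (0% and 12.5%, against 18.3% and 22.9% of all genes). Rabif, a chaperone of nucleotide-free Rabs, was 3.01-fold lower in control (2.64 to 3.44). Chml, an escort protein, was called 3.13-fold higher with alisertib than in marrow (2.52 to 3.94).

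**Figure D5:**
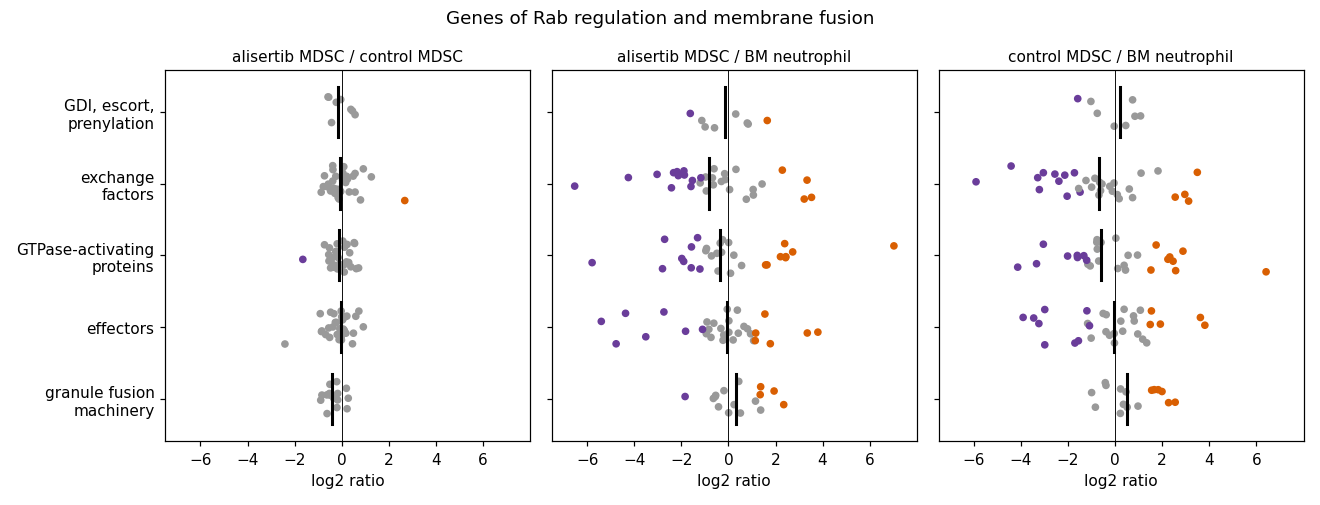
Log2 ratio of the genes past the filter in 5 lists of Rab regulation and membrane fusion (rows; vertical jitter carries no meaning), for the same 3 comparisons, with the list median as a black bar. Orange marks genes called higher and purple genes called lower. Against bone marrow the points spread to both sides, with Tbc1d9 farthest right, while on the left 1 exchange factor gene (Dennd5b) and 1 GTPase-activating protein gene (Tbc1d10c) are called.

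Markers of other cells differed between the pools, and their part in the Rab ratios was not tested. T and NK cell markers (11 of 11 genes) summed to 46.6 CPM with alisertib, 17.7 CPM in control and 147 CPM in bone marrow, with Klrb1c at 0 in both tumour libraries and Ncr1 at 0 with alisertib. Cd3d alone was 136 CPM of the marrow sum, and without it the other 10 summed to 40.4 CPM with alisertib, 8.96 CPM in control and 10.7 CPM in marrow. Of the 9 T and NK cell genes past the filter, 6 were called higher with alisertib than in marrow (Cd2, Cd3e, Cd4, Cd8a, Lck and Tcf7). Cd3d and Nkg7 were called lower. These were 66.7% and 22.2%, against 18.7% and 22.3% of all genes. B cell markers (7 of 7) summed to 43.4, 5.63 and 207 CPM in the same order, with none at 0. Dendritic cell markers (4 of 4) summed to 20.3, 5.17 and 7.41 CPM, and macrophage and monocyte markers (8 of 8) to 287, 262 and 448 CPM. Ly6c2 was 239.6 CPM of the marrow sum, and without it the other 7 macrophage and monocyte genes summed to 277 CPM with alisertib, 249 CPM in control and 208 CPM in marrow. C1qa, C1qb and C1qc were called higher in both tumour libraries than in marrow, and Mrc1 was called higher with alisertib. Ly6c2 was called lower in both tumour libraries. The lymphocyte and dendritic cell sums were higher with alisertib than in control. In that comparison 5 of 9 T and NK cell genes past the filter were called higher (55.6%; Cd2, Cd3e, Cd4, Lck and Tcf7). So were 6 of 7 B cell genes (85.7%) and 1 of 3 dendritic cell genes (33.3%, Ccr7), against 1.80% of all genes. In these 3 lists 0 were called lower, against 1.18% of all genes. Epithelial markers (3 of 5 measured) summed to 17.6 CPM with alisertib, 16.3 CPM in control and 5.68 CPM in marrow, where Epcam was at 0. Of the 3 endothelial markers, Pecam1, which myeloid cells also express, had 37.5 CPM with alisertib, 43.7 CPM in control and 10.1 CPM in marrow. Cdh5 and Kdr together had 0.434, 0.768 and 0.130 CPM, with Kdr at 0 in marrow.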

How the data were processed

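RNA of 3 pooled sorts, 1 library each, was sequenced. Per the labels' protocols, Trizol RNA of cells sorted on a FACSAria to over 90% purity went into NEBNext Ultra libraries. CASAVA 1.8, STAR 2.5.1b, mm9 and mm10 are listed by the submitters' processing notes, which give them no role. Counter, annotation and strand setting: not given in the sources used here.

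The authors deposited raw counts per gene, summing to 19373087 with alisertib, 21959748 in control and 21987097 in marrow, and FPKM values, used here for levels between genes. Symbols and positions came from GENCODE M21 (19648 of 19723 genes matched).

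Library sizes were scaled by TMM (edgeR 4.0.16, R 4.3.3). After adding 0.5 to each count, log2 ratios were taken over the 13019 genes with at least 1 CPM in at least 1 library. Exact 95% intervals of the ratio used scipy 1.17.1 and cover counting error only, since no molecular identifiers separate molecules from PCR copies. A gene with 0 counts was set against a floor of 3 counts per library. The procedure was tested on simulated counts. Alternatives were DESeq2 1.42.0 size factors, total counts, upper-quartile factors, other filters, other call rules and FPKM plus 0.1 or 1. Every Rab gene past the filter is named, and of each list up to 4 genes per comparison, called genes first. Further list genes named after their values were seen are marked so in the text. The lists, members and rules were chosen with earlier results of these data known. The 4 fibroblast marker genes were not analysed here, and the red cell and platelet list and 1 machinery gene are not reported here.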

Additional observations from a re-analysis of the deposited data

How the results depend on the processing

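No Rab gene that was called reversed its direction under any alternative run. Between alisertib and control MDSCs, 2 Rab genes were called lower, against 1 with total counts, 1 with FPKM plus 1 and 7 with a bound of 1.5-fold; 0 were called higher, against 1 when the ratio itself had to be at least 2-fold (Rab2b) and 1 with the 1.5-fold bound (Rab7b). Rab3d kept its call in this comparison under each setting and Rab28 lost it with total counts and FPKM plus 1. Of the machinery genes, 1 was called higher, against 2 with total counts, 0 with the 10 CPM filter, 2 by the ratio itself, 2 with the 1.5-fold bound and 0 with FPKM plus 1, and 1 was called lower, against 2 by the ratio itself and 6 with the 1.5-fold bound. The count of shifted paralog pairs was 0, against 3 by the ratio itself, 2 with the 1.5-fold bound and 2 with FPKM plus 0.1.

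Against bone marrow, the 1.5-fold bound raised the machinery genes called higher in control MDSCs to 35, against 23, and the shifted pairs to 7, against 4. All other counts against bone marrow stayed within 1.5 times. Without Rab3il1 and Rab5if, an alternative chosen after seeing the data like those for pairs and machinery genes, 8 were higher and 8 lower in control than in marrow, and 6 and 11 with alisertib. The median of the Rab genes between alisertib and control ran between -0.25 (DESeq2 size factors) and 0.11 (total counts), where that of all genes ran between -0.07 and 0.27. No paired analysis was possible because each group has 1 library. Depth limits the scarce members: Rab33a, Rab39, Rab4a, Rab4b and Rab2b have wide intervals, and no difference of theirs between alisertib and control was called.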

Other observations

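Genes outside the symbol rule carry Rab domains or names too. Cracr2a, whose long form in human cells is a large GTPase known as Rab46 that acts in granule traffic, had 44 counts with alisertib, 55 in control and 459 in bone marrow (2.12, 2.82 and 19.9 CPM), and was called 7.01-fold lower in control than in marrow (5.33 to 9.53). The Rab-like genes Rabl3 (6.74, 6.19 and 4.07 CPM) and Rabl6 (13.8, 13.1 and 19.2 CPM), listed for alisertib, control and marrow, were scarce and called in no comparison. Rabl2, below the filter, had 5, 12 and 6 counts. The ciliary transport GTPase gene Ift27 had 11, 7 and 44 counts and reached 1 CPM in marrow only. It was called 5.02-fold lower in control than in marrow (2.38 to 14.01) and was not called with alisertib.

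The antisense transcript Rab10os had 923 counts with alisertib, 1611 in control and 715 in bone marrow (44.5, 82.5 and 31.0 CPM), and its alisertib over control ratio of 0.539 (0.497 to 0.585) was not called, while it was called 2.66-fold higher in control than in marrow (2.44 to 2.91). Rab10 itself was level in the same libraries, and which strand was counted is not known. In the deposited FPKM table alone, Rab27b, the close relative of Rab27a, was listed at 0.018, 0.028 and 0.032 FPKM with alisertib, in control and in bone marrow, and Rab26 reached at most 0.035 FPKM and Rab3c at most 0.017 FPKM.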
